A study of Mus musculus with 2 samples.

Results

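The genes described here are Myadm, Rilpl2, Fam129c, Treml2, Cpm, Csrp2 and Pafah1b3, 7 of the 31053 genes counted in B cells of the mouse heart. They were selected on their higher level in cells that came mostly from the neonatal library. The ratio between the libraries is therefore given as a description with no test, and what is asked is how each gene differed between the libraries and between cells with more or fewer Vpreb3 UMIs. B cells were sorted from the hearts of wild-type C57BL6/J mice at 2 weeks of age (15 days in the title of the sample, male and female mice pooled) and at 8 weeks of age (male mice). Each age is 1 Chromium library made from 6 pooled mice, and both ages were digested by 1 protocol and sorted on the same day, with doublets and dead cells gated out. With 1 library per age there is no replicate: age, pool of mice, sex and library cannot be told apart, and every interval below is a 95% interval that covers counting error only.

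Cells were droplets with at least 2000 gene UMIs (unique molecular identifiers, each marking 1 captured mRNA molecule), at most 10% mitochondrial UMIs and at least 1 Cd79a UMI. This left 2077 neonatal cells with 16403180 UMIs (median 6000 per cell) and 3611 adult cells with 34623240 UMIs (median 6131), 5688 cells in all, and 2 barcodes were cells in both libraries. The pan B cell genes were abundant at both ages, for example Cd79a at 2688 CPM in neonatal and 2656 CPM in adult cells (CPM is the UMIs of a gene summed over cells, divided by all gene UMIs of those cells and scaled to 1e6). Of the 10 listed genes of early B cell precursors, Rag2, Dntt, Igll1 and Vpreb2 were at 0 UMIs in both libraries, which allows at most 0.183 CPM for each in the neonatal and 0.0866 CPM in the adult cells at 3 counts. The others were present: Sox4 (645 neonatal and 425 adult UMIs), Lef1 (222 and 149), Il7r (129 and 64), Rag1 (51 and 9), Vpreb1 (7 and 15) and Erg (2 and 1). The whole list summed to 64.4 CPM in neonatal and 19.1 CPM in adult cells.

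B cells reach the blood from the bone marrow, or in early life from the fetal liver, as immature cells, pass through transitional stages and then become follicular, marginal zone or B1 cells. Vpreb3, a protein that associates with immunoglobulin chains inside the cell, is expressed by precursor and transitional B cells and is lost as they mature, so its UMIs were used to divide the cells of each library. The genes of the list have different roles. Myadm (myeloid-associated differentiation marker) and Treml2 (a receptor of the TREM family) are membrane proteins, and Cpm is carboxypeptidase M, an enzyme held at the cell surface that trims basic residues from peptides. Rilpl2 is an adaptor bound by Rab GTPases and by myosin Va, Fam129c (Niban3) is a cytoplasmic protein found largely in B cells, Csrp2 is a LIM domain protein, and Pafah1b3 is a catalytic subunit of an acetylhydrolase of platelet-activating factor.

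All members are protein-coding genes of GRCm38. Myadm lies at chr7:3289080-3300442 on the plus strand and Pafah1b3 at chr7:25295049-25297986 on the minus strand. Cpm (chr10:117629500-117687352) and Csrp2 (chr10:110919789-110939622) are on the plus strand of chromosome 10. Rilpl2 lies at chr5:124463265-124478366 on the minus strand, Fam129c at chr8:71597648-71607936 and Treml2 at chr17:48299498-48312533, the last pair on the plus strand. The annotations of Myadm and Fam129c share stretches with other genes, so the assignment of reads there is uncertain. Pgls, which overlaps Fam129c, had 4199 neonatal and 7869 adult UMIs.

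Since Myadm, Rilpl2 and Fam129c had the largest ratio between the libraries, their promoter windows are shown, from 250 bases before to 50 bases after the start of the gene (RefSeq, GRCm38.p6, gene strand, 5′ to 3′). Capitals mark a GC box (GGGCGG), an E-box (CAGGTG) or the core of the EBF1 motif (CCCNNGGG), each searched on both strands. Myadm has 4 listed starts, and the window at chr7:3290305-3290604, 1 of the 3 that hold GC boxes, is given. The Rilpl2 window is chr5:124478186-124478485 on the minus strand and the Fam129c window chr8:71597458-71597757 on the plus strand.
Myadm: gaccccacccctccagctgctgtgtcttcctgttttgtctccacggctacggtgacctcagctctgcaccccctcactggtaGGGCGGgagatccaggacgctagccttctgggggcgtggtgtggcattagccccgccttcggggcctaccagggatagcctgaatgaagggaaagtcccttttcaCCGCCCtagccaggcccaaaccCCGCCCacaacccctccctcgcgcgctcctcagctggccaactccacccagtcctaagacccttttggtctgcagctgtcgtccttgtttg
Rilpl2: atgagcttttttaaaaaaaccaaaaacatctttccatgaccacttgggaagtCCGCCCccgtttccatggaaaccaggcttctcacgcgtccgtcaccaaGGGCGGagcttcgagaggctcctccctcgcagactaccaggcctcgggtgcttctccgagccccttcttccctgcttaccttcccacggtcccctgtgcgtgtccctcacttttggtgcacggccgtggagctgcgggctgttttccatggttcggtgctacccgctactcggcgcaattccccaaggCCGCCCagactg
Fam129c: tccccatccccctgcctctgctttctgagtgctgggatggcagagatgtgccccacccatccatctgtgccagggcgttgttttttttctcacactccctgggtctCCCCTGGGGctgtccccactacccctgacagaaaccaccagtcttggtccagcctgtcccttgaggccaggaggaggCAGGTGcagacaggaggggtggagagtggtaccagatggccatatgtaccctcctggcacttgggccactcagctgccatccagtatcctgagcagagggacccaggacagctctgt
The Myadm window holds 3 GC boxes and the Rilpl2 window 3, and neither holds the E-box or the EBF1 core. The Fam129c window holds 1 E-box, 2 overlapping EBF1 core matches and 0 GC boxes. These windows have 13 (Myadm), 20 (Rilpl2) and 1 (Fam129c) CpG dinucleotides. The Myadm windows are not all alike. The one at chr7:3288788-3289087, which holds the annotated start of the gene, has 0 GC boxes and 3 CpG dinucleotides. The other windows have 10 to 13 CpG dinucleotides, and among them chr7:3290306-3290605 is almost the same stretch as the window shown. Of 32851 promoter windows of this length, 35.7% hold the GC box, 20.2% the E-box and 13.7% the EBF1 core. The Cpm window (chr10:117629250-117629549) holds 6 GC boxes and 1 EBF1 core match that overlaps a GC box. The PU.1 core (AGGAAGT, in 9.35% of windows) and TATAAA (13.6%) were found in none of the 7 windows listed for these genes. Treml2, Csrp2 and Pafah1b3 had no entry in the promoter table.

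Across all cells, 6 of the 7 genes were at least 2-fold higher in the neonatal library. Of the 10703 genes with at least 50 UMIs, 3.96% passed the same fold, and since the members were selected on this contrast nothing is read from their count. The median log2 ratio of neonatal over adult was 1.34 over the members and 0.13 over all genes. Treml2 (2.02-fold) and Cpm (2.05-fold) lay just inside the 2-fold limit and Pafah1b3 (1.82-fold) just outside it. When the ratios were centred on the median gene, Treml2 was at a log2 ratio of 0.88 and Cpm at 0.90, both then under 2-fold.

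Myadm was at 203 CPM (196 to 210) in the neonatal and 44.2 CPM (42.1 to 46.5) in the adult cells, a log2 ratio of 2.19 (2.11 to 2.28). Rilpl2 was at 371 CPM (362 to 380) in the neonatal and 89.5 CPM (86.4 to 92.7) in the adult cells, a log2 ratio of 2.05 (1.99 to 2.11). For Fam129c the levels were 82.6 CPM (78.3 to 87.1) and 18.0 CPM (16.6 to 19.5), a log2 ratio of 2.20 (2.06 to 2.34). These 3 genes were more than 4-fold higher in the neonatal library. Treml2 was at 101 CPM (95.9 to 106) against 49.9 CPM (47.6 to 52.3), and Cpm at 68.1 CPM (64.2 to 72.2) against 33.2 CPM (31.3 to 35.2). Csrp2 was at 41.9 CPM (38.8 to 45.1) against 16.5 CPM (15.2 to 17.9), a log2 ratio of 1.34 (1.18 to 1.505). Pafah1b3 had the smallest ratio, 0.86 (0.78 to 0.94), from 141 CPM (136 to 147) and 77.7 CPM (74.8 to 80.7).

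Deeper cells show a gene more often, so each cell was also thinned at random to 2000 UMIs. At this depth Rilpl2 was detected in 42.8% (40.7 to 44.96) of neonatal and 13.0% (11.9 to 14.1) of adult cells, and Myadm in 29.7% (27.7 to 31.7) and 6.29% (5.52 to 7.13). Pafah1b3 was detected in 23.9% (22.1 to 25.8) and 14.0% (12.9 to 15.2), Treml2 in 18.7% (17.1 to 20.5) and 10.2% (9.28 to 11.3), and Fam129c in 14.3% (12.9 to 15.9) and 3.21% (2.66 to 3.84). The shares of Cpm were 13.3% (11.9 to 14.8) and 6.29% (5.52 to 7.13), and those of Csrp2 were 9.48% (8.26 to 10.8) and 3.46% (2.89 to 4.11). Before thinning, Myadm was detected in 60.2% of neonatal and 21.2% of adult cells and Rilpl2 in 71.2% and 34.2%, at nearly equal median depth.

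**Figure D1:**
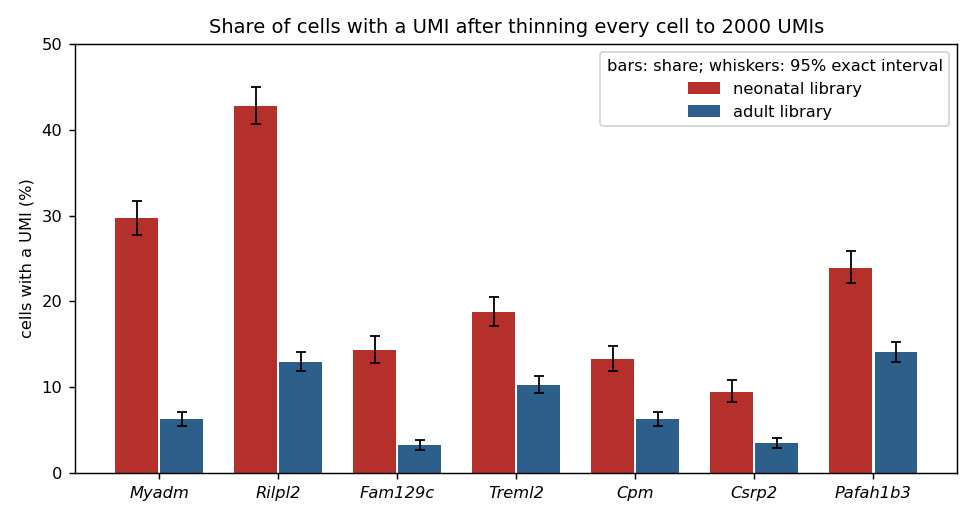
Share of cells (%, axis from 0) with at least 1 UMI of each gene after every cell was thinned to 2000 UMIs, neonatal library in red and adult library in blue; whiskers are exact 95% intervals. Rilpl2 (42.8% and 13.0%) and Myadm (29.7% and 6.29%) show the widest gaps, and Csrp2 has the lowest neonatal share (9.48%).

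RNA that floats free in the suspension enters every droplet. In near-empty droplets (ranks 45000 to 90000 by UMIs) Myadm was at 203 CPM in the neonatal and 39.6 CPM in the adult library, close to its level in cells, so free RNA carries the same difference. Its amount was estimated by taking each cell to hold as many free UMIs as these droplets (mean 55.9 neonatal and 92.0 adult). At 2000 UMIs it would then give a Myadm UMI to 0.377% of neonatal and 0.119% of adult cells. For Rilpl2 the shares would be 0.893% and 0.367%. All observed shares lay above these, and the part of free RNA in the difference between the libraries was not tested.

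Single cells rarely held many of the genes at once. After thinning, a neonatal cell had a UMI of 1.52 of the 7 genes on average and an adult cell of 0.565. None of the genes was detected in 18.9% of neonatal and 56.1% of adult cells, and at least 3 in 18.1% and 1.58%. No cell showed all 7, and 1 neonatal cell showed 6. Over the 21 pairs of genes the correlation across thinned cells ran from -0.03 to 0.13 in the 2077 neonatal cells and from -0.03 to 0.04 in the 3611 adult cells, which in counts this sparse is no finding.

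**Figure D2:**
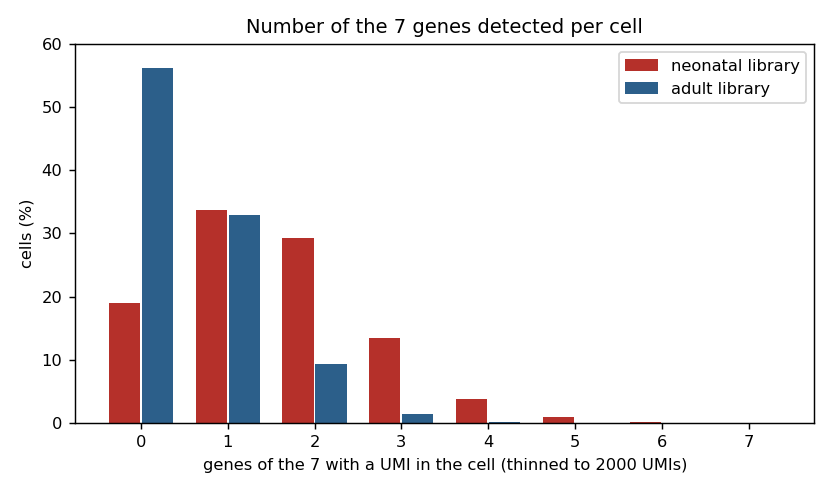
Percent of cells (axis from 0) by the number of the 7 genes with a UMI after thinning to 2000 UMIs, neonatal in red and adult in blue. Most adult cells (56.1%) showed none of the genes, while 18.9% of neonatal cells showed none.

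The cells were next divided by their Vpreb3 UMIs. In the neonatal library 593 cells (28.6%) had 0, 361 had 1 and 1123 (54.1%) had at least 2 Vpreb3 UMIs. In the adult library 1556 cells (43.1%) had 0, 764 had 1 and 1291 (35.8%) had at least 2. Cells with at least 2 held Vpreb3 at 660 CPM at the neonatal and 335 CPM at the adult age, so the same cutoff marks cells of a different mean level. Their median depth was 5868 UMIs in neonatal cells and 7202 UMIs in adult cells, against 6340 and 6180 for cells with 0.

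The Vpreb3 count is a division of the cells and not a measure of their stage, since in the adult library it did not run from follicular to transitional cells. Adult cells with at least 2 Vpreb3 UMIs were higher than those with 0 in the transitional genes Cd93, at a log2 ratio of 1.78 (1.37 to 2.20), and Sox4, at 1.34 (0.99 to 1.71), but not in Cd24a, at -0.08 (-0.15 to -0.02). They were also higher in follicular genes, at 0.77 (0.70 to 0.84) for Fcer2a, 0.65 (0.61 to 0.69) for Ighd, 0.52 (0.47 to 0.57) for Ccr7 and 0.51 (0.41 to 0.61) for Cr2. The follicular list summed to 2288 CPM in these cells and to 1540 CPM in adult cells with 0, and the B1 list to 675 and 1265 CPM. In neonatal cells the Vpreb3 ratio was 0.75 (0.65 to 0.85) for Cd24a and 0.06 (-0.07 to 0.19) for Fcer2a.

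Myadm and Rilpl2 differed far more between the libraries than between the Vpreb3 classes. Myadm was at 200 CPM in neonatal cells with 0 Vpreb3 UMIs, 173 CPM in those with 1 and 212 CPM in those with at least 2. The adult levels were 37.6, 43.1 and 50.03 CPM, so the lowest neonatal level was above the highest adult level. The log2 ratio of neonatal over adult was 2.41 (2.25 to 2.57) with 0 and 2.08 (1.96 to 2.21) with at least 2 Vpreb3 UMIs. Within the libraries, cells with at least 2 over 0 Vpreb3 UMIs had a log2 ratio of 0.09 (-0.02 to 0.20) in neonatal cells and 0.41 (0.25 to 0.58) in adult cells. The interval of the difference of these ratios, -0.32 (-0.52 to -0.13), did not include 0. After thinning, Myadm was detected in 5.08% of adult cells with 0 and 12.4% of those with 5 or more Vpreb3 UMIs. The adult share was 6.54%, 3.58% and 7.54% with 1, 2 and 3 to 4 Vpreb3 UMIs, so it did not rise steadily. The neonatal shares were 30.2% with 0 and 31.3% with 5 or more. Rilpl2 was at 390, 348 and 367 CPM in the neonatal and at 96.8, 80.5 and 86.8 CPM in the adult library, in the same order of Vpreb3 classes. Its ratio between the libraries was 2.01 (1.91 to 2.11) with 0 and 2.08 (1.99 to 2.17) with at least 2 Vpreb3 UMIs. Within the libraries the Vpreb3 ratio was slightly below 0, at -0.09 (-0.17 to -0.01) and -0.16 (-0.27 to -0.05), a difference of 0.07 (-0.07 to 0.20).

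Fam129c and Pafah1b3 were higher in cells with Vpreb3 in the neonatal library and differed less or not measurably in the adult library. Fam129c was at 57.2, 61.5 and 103 CPM in neonatal cells with 0, 1 and at least 2 Vpreb3 UMIs, and at 17.4, 13.5 and 20.02 CPM in adult cells. The Vpreb3 log2 ratio was 0.84 (0.65 to 1.04) in neonatal cells and 0.20 (-0.05 to 0.45) in adult cells, a difference of 0.65 (0.34 to 0.96). Pafah1b3 was at 99.0, 108 and 174 CPM in the neonatal library, but at 79.4, 75.5 and 77.2 CPM in the adult library. Its Vpreb3 ratio was 0.81 (0.67 to 0.96) in neonatal cells and -0.04 (-0.16 to 0.08) in adult cells, a difference of 0.85 (0.67 to 1.04). The libraries therefore lay close for Pafah1b3 in cells with 0 Vpreb3 UMIs, at a log2 ratio of 0.32 (0.16 to 0.47). They lay apart in cells with at least 2, at 1.17 (1.06 to 1.28). With finer classes, neonatal Fam129c was at 68.4, 75.7 and 137 CPM and Pafah1b3 at 145, 145 and 207 CPM in cells with 2, with 3 to 4 and with 5 or more Vpreb3 UMIs. The adult levels in those classes were 16.9, 20.9 and 20.9 CPM for Fam129c and 72.5, 76.2 and 80.0 CPM for Pafah1b3.

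In summed UMIs, Treml2, Cpm and Csrp2 were higher in cells with Vpreb3 at both ages. Treml2 was at 67.1, 111 and 117 CPM in neonatal and at 32.9, 52.8 and 62.6 CPM in adult cells with 0, 1 and at least 2 Vpreb3 UMIs. For Cpm the levels were 46.4, 78.9 and 77.5 CPM and 22.2, 36.2 and 41.1 CPM, and for Csrp2 27.2, 42.8 and 49.96 CPM and 11.7, 21.5 and 18.7 CPM. The adult levels in cells with at least 2 Vpreb3 UMIs were near the neonatal levels in cells with 0 for Treml2 and Cpm. The Vpreb3 log2 ratios of Treml2 were 0.80 (0.63 to 0.99) in neonatal cells and 0.93 (0.76 to 1.10) in adult cells, and the interval of their difference (-0.36 to 0.12) included 0, as it did for Cpm (-0.44 to 0.15) and Csrp2 (-0.20 to 0.59). The ratio of the libraries was nearly the same with 0 and with at least 2 Vpreb3 UMIs, at 1.03 and 0.90 for Treml2, 1.06 and 0.92 for Cpm and 1.22 and 1.42 for Csrp2. After thinning, the detected shares with 0 and at least 2 Vpreb3 UMIs had separate intervals for Treml2 at both ages and neonatal Csrp2. The intervals overlapped for Cpm, at 11.6% and 14.0% of neonatal and 5.27% and 6.74% of adult cells. They also overlapped for adult Csrp2, at 2.96% and 3.33%. At equal depth the difference was thus not shown for Cpm or adult Csrp2.

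**Figure D3:**
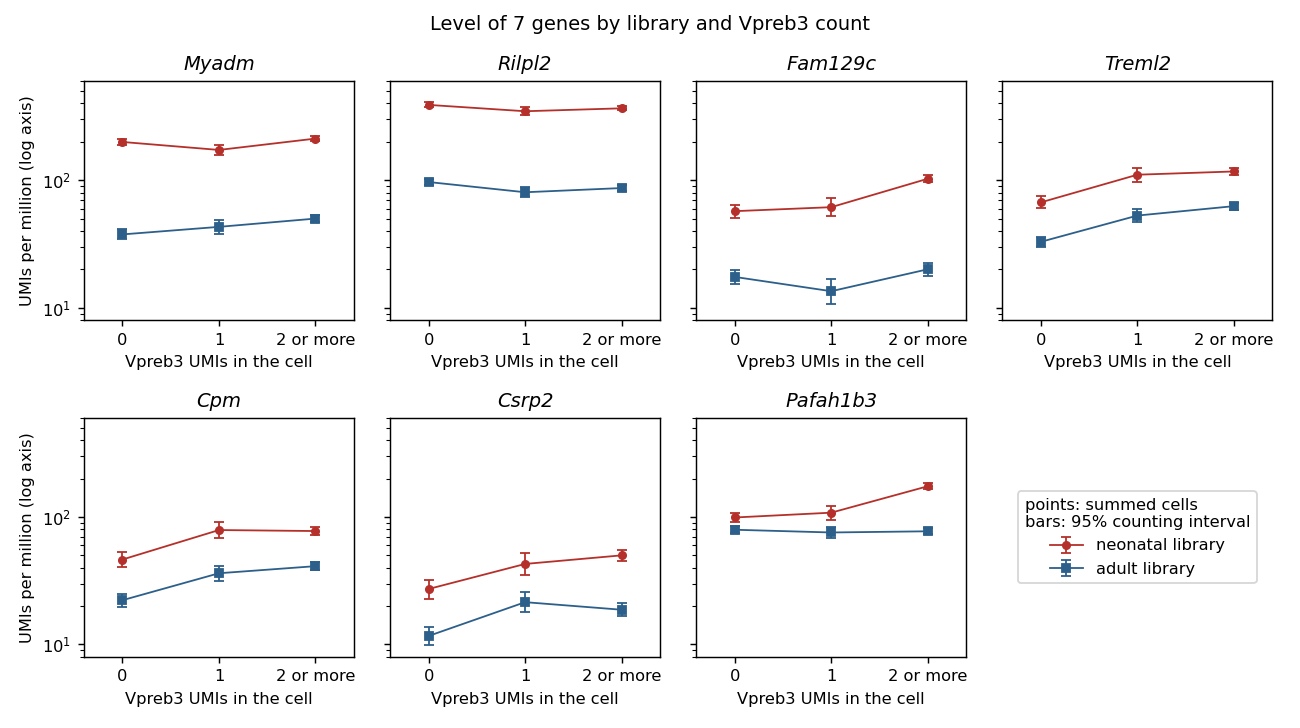
Level of each gene (CPM, log axis) in cells with 0, 1 or at least 2 Vpreb3 UMIs, neonatal library as red circles and adult library as blue squares; each point is the sum over the cells of a class and bars are 95% counting intervals. Neonatal Myadm stays between 173 and 212 CPM and adult Myadm between 37.6 and 50.03 CPM, while Pafah1b3 goes from 99.0 to 174 CPM in the neonatal library and stays between 75.5 and 79.4 CPM in the adult library.

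By count, 6 of the 7 genes were at least 2-fold higher in the neonatal library among cells with 0 Vpreb3 UMIs (3.97% of 9320 genes) and 5 among cells with at least 2 (3.09% of 9791 genes). These are again the contrast that chose the genes. Restricting the neonatal cells to those with a Y-linked UMI and no Xist moved Treml2, Cpm and Csrp2 with 0 Vpreb3 UMIs under 2-fold. For the Vpreb3 contrast, 0 of the 7 genes were 2-fold higher at either age (1.23% of 9014 genes in the neonatal and 0.504% of 9926 in the adult library). At 1.5-fold, 5 were in the neonatal library (6.22% of all genes) and 3 in the adult library (5.22%). The median Vpreb3 log2 ratio of the members was 0.80 in neonatal cells and 0.41 in adult cells, against 0.09 and 0.14 over all genes. The genes were selected on cells mostly of the neonatal library, where Vpreb3 was higher (381 CPM, and 177 CPM in the adult library). The Vpreb3 contrast is thus not independent of the selection, and nothing is read from its counts and medians, here or by depth below.

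**Figure D4:**
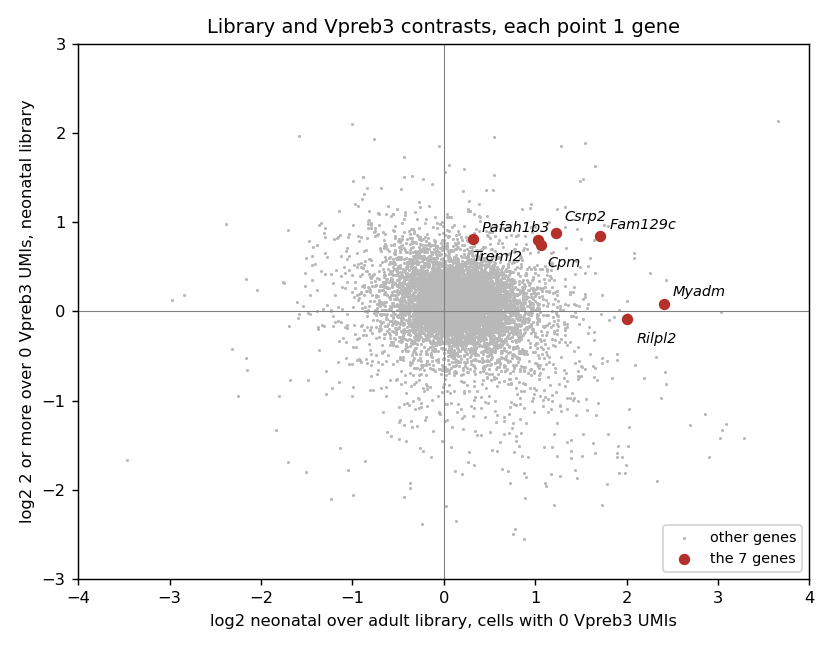
Each point is 1 of 8860 genes, placed by its log2 ratio of neonatal over adult level in cells with 0 Vpreb3 UMIs (x axis) and of cells with at least 2 over 0 Vpreb3 UMIs in the neonatal library (y axis); 1 gene lies outside the axes. Myadm (2.41, 0.09) and Rilpl2 (2.01, -0.09) lie far right at the level of the zero line, Pafah1b3 (0.32, 0.81) near the middle and high, and the other 4 genes right and high.

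The Vpreb3 contrast of Treml2, Cpm and Csrp2 differed between cells of different depth. Among cells with 8000 or more UMIs, Treml2 was at 33.5 CPM (27.2 to 40.8) with 0 and 106 CPM (96.6 to 116) with at least 2 Vpreb3 UMIs in the neonatal library, and at 18.3 CPM (15.5 to 21.4) and 62.1 CPM (57.8 to 66.7) in the adult library. Cpm was at 21.0 and 69.8 CPM in the neonatal and at 12.7 and 39.2 CPM in the adult library. For Csrp2 the levels were 12.9 and 40.7 CPM, and 6.28 and 18.6 CPM. The log2 ratios of these 3 genes ran from 1.56 to 1.77 over both libraries, with intervals above 1. Among cells of 4000 to under 8000 UMIs the difference was within or near the counting error, with Treml2 at 109 and 127 CPM in the neonatal and 62.7 and 65.8 CPM in the adult library. There the ratios were 0.23 (0.00 to 0.46) and 0.07 (-0.22 to 0.37) for Treml2, 0.01 (-0.26 to 0.28) and 0.14 (-0.22 to 0.49) for Cpm, and 0.24 (-0.10 to 0.59) and -0.22 (-0.82 to 0.37) for Csrp2. The cells of 2000 to under 4000 UMIs were few (31 neonatal cells with 0 and 71 with at least 2 Vpreb3 UMIs, 354 and 185 adult cells), and there the interval of each of these genes included 0. In the neonatal library the ratios were -0.73 (-1.55 to 0.11) for Treml2, 0.79 (-0.42 to 2.22) for Cpm and 1.58 (-0.15 to 3.96) for Csrp2, which had 3 UMIs in the cells with 0, and the intervals of Cpm and Csrp2 also hold ratios as large as in the deep cells. The adult ratios were -0.05 (-0.65 to 0.54), 0.46 (-0.22 to 1.13) and 0.12 (-0.67 to 0.88).

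By count, 4 of the 7 genes in the neonatal library (Fam129c, Cpm, Csrp2 and Pafah1b3) and 3 in the adult library (Myadm, Fam129c and Pafah1b3) were at least 1.5-fold higher with Vpreb3 in the cells of 2000 to under 4000 UMIs. In the middle range the counts were 2 and 1, and in the deep cells 5 and 3. No minimum of UMIs was set for the members, whereas the shares of all genes used genes with at least 50 UMIs. In the shallowest range neonatal Cpm (31 and 7 UMIs with at least 2 and with 0 Vpreb3 UMIs) and Csrp2 (23 and 3) fell under this minimum. So did adult Myadm (24 and 13) and Fam129c (21 and 17), so these counts and shares are not on the same footing. Of all genes tested, 16.7%, 5.81% and 12.7% passed the same fold in the neonatal library and 3.28%, 2.39% and 14.3% in the adult library, from the shallowest to the deepest range. The share of all genes thus did not rise steadily with depth at either age. The median log2 ratio of the members was 0.79, 0.23 and 0.60 in neonatal cells and 0.48, 0.14 and 0.27 in adult cells.

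Several gene lists differed along with Vpreb3 in the deep cells. The summed level of the B1 list (Cd5, Zbtb32, Bhlhe41, Spn, Itgam, Cd9, S100a6 and Ahnak) was 3421 CPM in the 209 neonatal and 1798 CPM in the 622 adult cells with 8000 or more UMIs and 0 Vpreb3 UMIs, against 1383 and 817 CPM in those with at least 2. Over all cells most of this list was S100a6 and Ahnak, with 11646 and 5913 of 19608 neonatal and 22216 and 5130 of 31073 adult UMIs. In cells of 4000 to under 8000 UMIs without Vpreb3 it was 336 and 257 CPM. The macrophage and monocyte list stood at 248 CPM in the deep neonatal cells with 0 and at 111 CPM in those with at least 2 Vpreb3 UMIs, and at 36.8 and 7.07 CPM in the adult cells. The marginal zone list was also higher in the deep cells with 0 than in those with at least 2 Vpreb3 UMIs, at 2849 and 2109 CPM in neonatal and 2191 and 1403 CPM in adult cells, and the follicular list was lower, at 1252 and 2113 CPM and at 1104 and 2251 CPM. In neonatal cells of 4000 to under 8000 UMIs both lists went the other way. There the follicular list was at 3048 and 2314 CPM and the marginal zone list at 1285 and 1415 CPM. The cell cycle list was at 405 and 136 CPM in the deep neonatal but at 116 and 129 CPM in the deep adult cells. Neutrophil genes were at 148 and 1.16 CPM in the deep neonatal cells and at 0 UMIs in the deep adult cells. The part of these lists, and of droplets that caught more than 1 cell, in the contrast was not tested. Without the 5% of cells with most UMIs, the Vpreb3 log2 ratio over all remaining cells was 0.67 and 0.92 for Treml2, 0.56 and 0.81 for Cpm and 0.91 and 0.87 for Csrp2 in neonatal and adult cells.

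Fam129c and Pafah1b3 kept their neonatal difference at each depth. In neonatal cells of 4000 to under 8000 UMIs, Fam129c was at 51.6 CPM with 0 and 107 CPM with at least 2 Vpreb3 UMIs, a log2 ratio of 1.05 (0.74 to 1.37), and with 8000 or more UMIs the ratio was 0.59 (0.33 to 0.85). Pafah1b3 was at 95.2 and 186 CPM in the first range, a ratio of 0.97 (0.74 to 1.20), and its ratio in the second was 0.60 (0.40 to 0.80). In the adult library the ratios of Fam129c were 0.61 (0.07 to 1.16) and -0.01 (-0.31 to 0.29), and those of Pafah1b3 0.23 (-0.05 to 0.50) and -0.19 (-0.33 to -0.05). In cells of 2000 to under 4000 UMIs the ratios were 1.86 (0.65 to 3.37) and 1.29 (0.47 to 2.22) for neonatal Fam129c and Pafah1b3, and 1.20 (0.21 to 2.21) and 0.73 (0.26 to 1.20) for the adult ones. Adult Pafah1b3 was thus higher with Vpreb3 in the shallowest cells and lower in the deepest. Adult Myadm had ratios of 1.78 (0.75 to 2.88), 0.33 (-0.09 to 0.76) and 0.27 (0.09 to 0.46) from the shallowest to the deepest range, the first resting on 24 and 13 UMIs. In the 2 deeper ranges neonatal Myadm had ratios of 0.12 (-0.06 to 0.30) and 0.10 (-0.04 to 0.25), and Rilpl2 0.13 (-0.00 to 0.27) and -0.17 (-0.28 to -0.07).

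**Figure D5:**
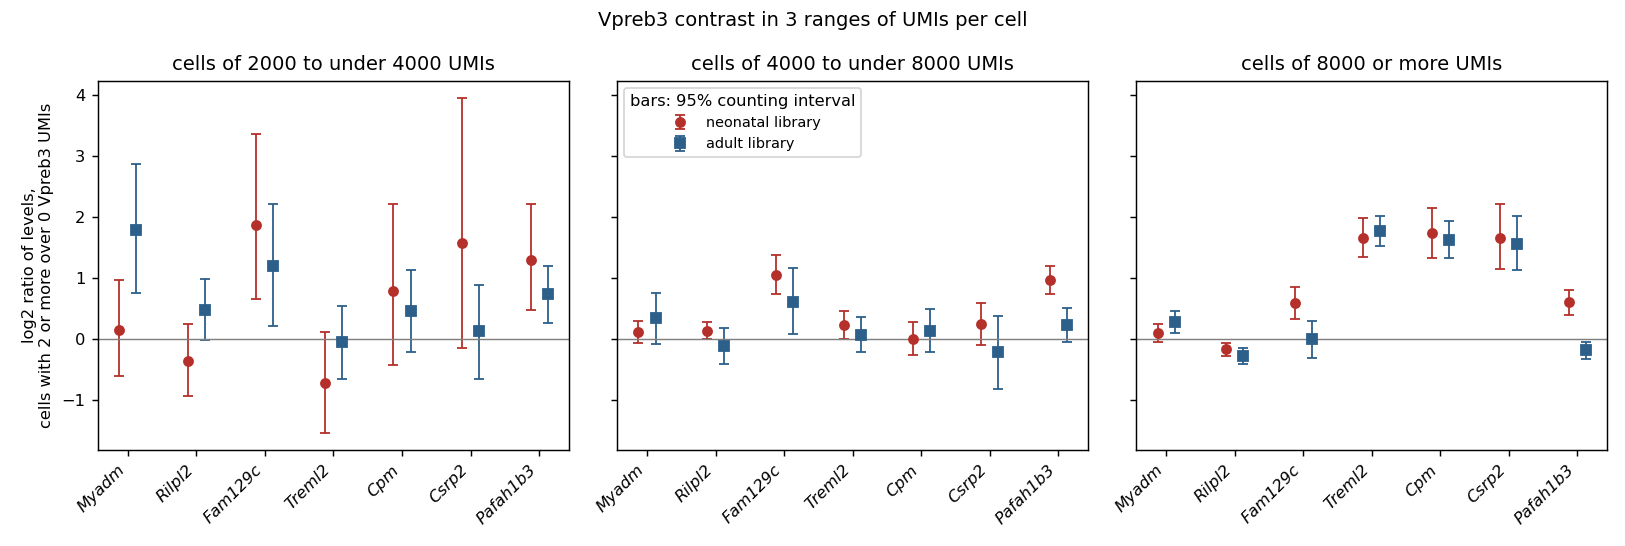
Log2 ratio of the level in cells with at least 2 over cells with 0 Vpreb3 UMIs for each gene, in cells of 2000 to under 4000 UMIs (left), 4000 to under 8000 UMIs (middle) and 8000 or more UMIs (right), neonatal library as red circles and adult library as blue squares, with 95% counting intervals. Treml2, Cpm and Csrp2 lie between 1.56 and 1.77 on the right and between -0.22 and 0.24 in the middle, with wide intervals that all include 0 on the left, and the neonatal interval of Pafah1b3 lies above 0 in each panel.

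The ratio between the libraries did not need deep cells. Over the ranges of 2000 to under 4000, 4000 to under 8000 and 8000 or more UMIs, the log2 ratio of neonatal over adult ran from 2.11 to 3.36 for Myadm, from 2.04 to 2.44 for Rilpl2 and from 2.14 to 2.85 for Fam129c. It ran from 0.77 to 1.19 for Treml2, from 0.84 to 1.20 for Cpm, from 1.08 to 1.47 for Csrp2 and from 0.71 to 1.54 for Pafah1b3. Each of the 7 genes was higher in the neonatal library in all of these ranges.

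Other divisions of the cells gave the same direction for Myadm and Rilpl2. Cr2 encodes CD21 and Fcer2a encodes CD23, which mark the follicular stage. Cells with a UMI of neither were 1032 of the neonatal cells (49.7%) and 649 of the adult cells (18.0%). In them Myadm was at 227 CPM in the neonatal and 48.0 CPM in the adult library, and in cells with both it was at 176 and 43.4 CPM. Rilpl2 was at 395 and 124 CPM in cells with neither and at 371 and 80.9 CPM in cells with both. Pafah1b3 was at 175 and 117 CPM in cells with neither and at 98.2 and 68.5 CPM in cells with both, so at each age it was higher in cells lacking both transcripts. Treml2 was at 92.1 and 31.8 CPM in cells with neither and at 118 and 55.5 CPM in cells with both. Cells with a Cd93 UMI, another mark of the transitional stage, had a library log2 ratio of 1.60 (1.39 to 1.82) for Myadm and 2.11 (1.95 to 2.27) for Rilpl2.

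Among cells with at least 3 of the 8 B1 genes after thinning (63 neonatal, median 15368 UMIs, and 97 adult, median 15854), several ratios were smaller. Myadm was at 283 and 95.3 CPM, a log2 ratio of 1.57 (1.31 to 1.84), and Rilpl2 at 392 and 164 CPM, a ratio of 1.26 (1.04 to 1.47). In cells with none of the B1 genes the ratios were 2.23 (2.08 to 2.38) and 2.15 (2.05 to 2.25). Fam129c kept a ratio of 1.96 (1.44 to 2.50), from 91.4 and 23.6 CPM. Pafah1b3 did not differ beyond counting error in the cells rich in B1 genes, at 111 CPM in both libraries, and Treml2 (25.2 and 22.0 CPM) and Cpm (12.6 and 17.7 CPM) were low at both ages.

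Sex differed between the libraries. In the neonatal library 1279 cells had a Y-linked UMI and no Xist, 323 had Xist and no Y-linked UMI, 80 had both and 395 neither. In the adult library 2819 had a Y-linked UMI only and none had Xist only. Neonatal male over female log2 ratios had intervals that included 0 for 6 of the 7 genes, for example 0.05 (-0.10 to 0.20) for Myadm and -0.01 (-0.12 to 0.10) for Rilpl2. Treml2 was the exception, at -0.43 (-0.63 to -0.23), lower in the male cells. Depth was not equal either, as half-way values of UMIs per cell (medians) were 6269 for male and 5543 for female neonatal cells. From the shallowest to the deepest range of UMIs per cell, neonatal Treml2 was at 140, 124 and 75.5 CPM. The part of depth in its male over female ratio was not tested. Between neonatal and adult cells with Y-linked UMIs alone, the ratio was 2.12 (2.02 to 2.21) for Myadm, 1.99 (1.92 to 2.06) for Rilpl2, 2.18 (2.02 to 2.34) for Fam129c and 0.89 (0.77 to 1.01) for Treml2.

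Myeloid transcripts were also more frequent in the neonatal cells. The 8 macrophage and monocyte genes summed to 92.1 CPM in the neonatal and 17.1 CPM in the adult library, most of it Lyz2 (68.5 and 6.07 CPM). In the neonatal library this sum was 168 CPM in cells with 0, 63.1 CPM with 1 and 57.0 CPM with at least 2 Vpreb3 UMIs, where C1qa, C1qb and Fcgr1 were at 0. In the adult library it was 25.6, 27.3 and 6.67 CPM. The 5 neutrophil genes summed to 27.6 and 0.0578 CPM, with 439 of the 452 neonatal UMIs in cells without Vpreb3. T cell genes were at 11.6 and 15.5 CPM, endothelial genes at 140 and 118 CPM (Pecam1, which B cells also express, made up 137 and 116 CPM of it, and Cdh5, Kdr and Egfl7 were at or under 0.462 CPM), and fibroblast, platelet and cardiomyocyte genes under 2 CPM in both libraries. Cells with at least 2 genes of the T cell, macrophage and monocyte, neutrophil, endothelial (Pecam1 included) and fibroblast lists were also left out. This kept 1918 neonatal and 3364 adult cells. The library log2 ratio was then 2.26 for Myadm, 2.17 for Rilpl2 and 2.24 for Fam129c, against 2.19, 2.05 and 2.20 in all cells. The part of other cell types in these ratios was not tested.

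Related genes had mixed ratios. Of 41 paralogs and partners, 21 had at least 50 UMIs. Of these, 6 were at least 2-fold higher in the neonatal library and 1 at least 2-fold lower. Over all genes with at least 50 UMIs, 3.96% were at least 2-fold higher and 3.25% at least 2-fold lower. The median log2 ratio of the relatives was 0.37 against 0.13 over all genes. The enzyme subunits listed with Pafah1b3 had smaller ratios than it, 0.40 (0.34 to 0.46) for Pafah1b1 and 0.46 (0.31 to 0.61) for Pafah1b2. Csrp1, the nearest relative of Csrp2, was lower in the neonatal library, at 17.4 and 24.9 CPM. Rilpl1, the relative of Rilpl2, was also lower, at 0.975 and 2.77 CPM, and so was the kinase Lrrk2, whose Rab substrates bind Rilpl2, at 65.0 and 79.2 CPM, a log2 ratio of -0.28 (-0.39 to -0.18). The 6 relatives at least 2-fold higher were Fam129a, Trem1, Treml4, Crip1, Crip2 and Pla2g7. Crip1 was the most abundant of them, at 2086 and 923 CPM, and Trem1, Treml4 and Pla2g7, which are known from myeloid cells, stayed at or under 4.57 CPM.

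Of the 6 transitional genes, 3 were at least 2-fold higher in the neonatal library, Vpreb3 (381 and 177 CPM), Cd93 (22.9 and 10.8 CPM) and Sox4 (39.3 and 12.3 CPM), with a median log2 ratio of 0.99 over the list. Spib (234 and 126 CPM), Ly6d and Cd24a were under 2-fold. Of the 10 precursor genes only 4 had at least 50 UMIs, all at least 2-fold higher in the neonatal library, and Rag1 was among them with 51 neonatal and 9 adult UMIs. Over all genes 3.96% passed the same fold, and both lists were chosen with earlier results of these data known.

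The genes most like Myadm were sought among 3018 genes with at least 50 CPM in at least 1 of 6 groups (both libraries, each with 0, 1 and at least 2 Vpreb3 UMIs), by the distance between their centred log2(CPM + 1) levels. The nearest was the gene model Gm47283 (distance 0.42), annotated on chromosome Y and at 236, 233 and 255 CPM in the neonatal and at 58.7, 69.9 and 73.2 CPM in the adult groups. Rilpl2 came next (0.46), followed by Fam129c (0.67), Rgcc (0.76) and Rasd1 (0.82). Rasd1, a small GTPase, was at 107, 103 and 102 CPM in the neonatal and 29.4, 39.7 and 26.3 CPM in the adult groups. The closest pair of members was Treml2 and Cpm, at a distance of 0.10. Nearest to the mean of the 7 genes were Tfrc (0.20), the transferrin receptor, Cecr2 (0.22), Dusp5 (0.27), Irf4 (0.32), a transcription factor of activated B cells, and Pik3ip1 (0.33). Irf4 was at 178, 184 and 203 CPM in the neonatal and at 53.5, 74.1 and 77.5 CPM in the adult groups. These distances rest on 2 libraries and describe these samples alone.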

How the data were processed

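B cells of both ages were measured by droplet single-cell RNA sequencing (Chromium Single Cell 3′ v3). The authors aligned the reads to mm10 and counted UMIs with Cell Ranger (version 3.0.2 in the file headers), and deposited the UMI counts of every gene in every droplet as raw whole numbers, with no normalization and no filter on droplets. The rows of 3 antibodies were left aside, and no column of another sample was used. Everything else was computed here with scipy 1.17.1, numpy 2.4.6 and pandas 2.3.3 under Python 3.11.15, and drawn with matplotlib 3.10.9.

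The members, the gene lists and the rules were chosen with earlier results of these data known. The named genes are the 7 members, their listed relatives, the transitional list and the 5 genes nearest to Myadm and to the mean of the members. Counts were summed over cells and divided by the total (CPM). Intervals are exact (Poisson for CPM, conditional binomial for ratios, Clopper-Pearson for shares) and cover counting error only. The ratio intervals were checked on simulated Poisson counts, the model they assume. That check cannot show how they behave where UMIs of a gene gather in single cells. A neonatal cell held as many as 78 Rilpl2 UMIs. Fold counts over all genes used those with at least 50 UMIs. In the ranges of UMIs per cell and in the alternatives, the members were counted without this minimum. Cells were thinned without replacement (seed 20201). No doublet caller was run. The sort gated doublets out, which does not remove pairs of cells caught in 1 droplet, and these were not estimated. Gene positions are from GENCODE vM21, in which 99.6% of the gene identifiers were found. The division of the Vpreb3 classes by UMIs per cell and the 1.5-fold limit were chosen after the data were seen.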

Additional observations from a re-analysis of the deposited data

Results flagged for a closer look

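The Vpreb3 contrast of Pafah1b3 differed between the libraries, with a log2 ratio of cells with at least 2 over 0 Vpreb3 UMIs of 0.81 in neonatal cells and -0.040 in adult cells. Over all cells the adult interval (-0.16 to 0.08) included 0, so no opposite sign was shown there. Among cells with 8000 or more UMIs the ratios had opposite signs, at 0.60 (0.40 to 0.80) neonatal and -0.19 (-0.33 to -0.05) adult. In cells of 2000 to under 4000 UMIs both were above 0, at 1.29 (0.47 to 2.22) and 0.73 (0.26 to 1.20). The difference over all cells, 0.85 (0.67 to 1.04), was beyond counting error. With 1 library per age a difference between the ages was not tested.

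Droplets with at least 2000 UMIs, at most 10% mitochondrial UMIs and no Cd79a UMI lay outside the comparisons, 14 neonatal and 4 adult ones. The neonatal ones held 28 Myadm UMIs, 258 CPM (171 to 373), in 6 of the 14 droplets, and 5 Rilpl2 UMIs, 46.0 CPM (14.9 to 107). Of the 14, 4 had at least 3 macrophage genes, with 12 Myadm UMIs between them, and 3 had at least 2 T cell genes. Myadm was thus present in droplets that lacked the B cell marker at a level near that of the B cells (203 CPM), whereas Rilpl2 was lower there than in the B cells (371 CPM).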

How the results depend on the processing

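Over the alternatives set for the cells, scaling, Vpreb3 cutoff and thinning, 630 log2 ratios of single genes were compared with their reported values. Of these, 512 stayed within the interval of the reported value and 114 moved outside it. Another 4, whose reported value had passed the fold limit, changed sign. Ratios reported under the limit that changed sign are counted among the 512 and 114. An example is the adult Vpreb3 ratio of Fam129c, reported as 0.20 and at lowest -0.71. Of 182 shares of thinned cells, 131 stayed within their interval and 51 moved, among them those thinned to another depth. Myadm and Rilpl2 stayed at or above a library log2 ratio of 1.62 under every alternative run, in all cells and in both Vpreb3 classes. A mitochondrial limit of 5% kept 60 neonatal and 156 adult cells. It left 3 of 7 genes past 2-fold between the libraries, 2 with 0 Vpreb3 UMIs and 2 with separate shares, and turned the library ratio of Treml2 (-0.14) and Cpm (-0.076) with 0 Vpreb3 UMIs and of Csrp2 (-0.39) with at least 2. Over all genes it left 182 and 195 past 2-fold in these classes, in place of 370 and 303. Neonatal cells with Y-linked UMIs alone left 3 genes with 0 Vpreb3 UMIs. For the Vpreb3 contrast, 5 neonatal and 3 adult genes passed 1.5-fold. The mean over cells gave 3 and 0, Vpreb3 taken after thinning 3 and 0 (305 and 236 of all genes, in place of 561 and 518), and cells of 4000 to under 8000 UMIs 2 and 1, with Csrp2 at -0.22 in the adult library and 173 of all genes past the fold there. In that range 204 genes passed 2-fold between the libraries with 0 Vpreb3 UMIs. A minimum of 5000 UMIs gave 916 of all genes in the adult Vpreb3 contrast, and median of ratios scaling 216. Counting genes from 10 UMIs gave 937, 849 and 702 between the libraries (all cells, 0 and at least 2 Vpreb3 UMIs) and 1045 and 1028 in the Vpreb3 contrasts, and from 200 UMIs 203, 144, 143, 230 and 230. Median of ratios scaling lowers every library ratio over all cells by 0.13. No paired analysis was possible because each age is 1 library. Depth limits the low genes most, as Csrp2 in adult cells with 0 Vpreb3 UMIs rests on 151 UMIs.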
